A study of Mus musculus with 18 samples.

Results

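Iron handling in mouse lung neutrophils was followed through 8 genes, listed by name for their known roles, with earlier results of these data known when the list was made. They are Fth1 and Ftl1, which encode the ferritin subunits that store iron, Slc40a1 (ferroportin, the iron exporter), Tfrc (the transferrin receptor, which takes up iron), Slc11a1 (NRAMP1, which moves metal ions across the phagosome membrane), Aco1 and Ireb2 (the iron regulatory proteins IRP1 and IRP2) and Ncoa4 (the receptor that delivers ferritin for breakdown). All 8 of these genes, among 40481 gene IDs in the count table, had enough reads to be tested. Neutrophils carrying CD45, CD11b and Ly6G were sorted from the lungs of C57BL/6 mice, either wild type (WT) or with a knockout of Cybb, which models chronic granulomatous disease (CGD). Cybb encodes gp91phox, on which the oxidative burst of phagocytes depends, and every CGD group carries its knockout. The cells were further sorted by CD101, which marks mature neutrophils, into CD101pos and CD101neg fractions. The 6 groups of 3 libraries were, for each genotype, CD101pos cells of naive mice and both fractions of mice given zymosan. Naive CD101neg cells are not analysed here. Zymosan is a yeast cell wall preparation, of which each mouse received 20 µg intranasally, and the lungs were taken after 24 hours. The mice given zymosan were 13-week-old females and the naive mice 12-week-old males, so zymosan, sex and age cannot be told apart. Nothing in the sources used here ties the replicates to separate mice, and a p-value here measures only how these samples spread, which may be technical.

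Cells keep free iron low because it catalyses the formation of radicals from peroxide. Ferritin is a hollow shell of heavy (Fth1) and light (Ftl1) chains, of which the heavy chain oxidises iron for storage and the light chain aids its mineralisation, and ferroportin is the known route of iron out of a mammalian cell. When iron is scarce, IRP1 and IRP2 bind hairpins called iron-responsive elements (IREs), which blocks translation where the hairpin is in a 5′ untranslated region (UTR) and protects the mRNA where it is in a 3′ UTR. In phagocytes at a site of infection, iron is also a nutrient contested between host and microbe.

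The hairpins are shown because they are what the storage, export and uptake transcripts of the set share in sequence. They were read from GENCODE M21 transcripts (GRCm38) by searching the sense strand of UTRs for the letters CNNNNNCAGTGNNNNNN in which the 5 bases before the loop pair with those after it and the last base of the loop is not G. Only the sense strand was searched, since the element is part of an RNA, and capitals mark the 6-base loop.
Fth1 5′ UTR: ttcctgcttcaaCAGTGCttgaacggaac
Ftl1 5′ UTR: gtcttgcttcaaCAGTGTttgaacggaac
Slc40a1 5′ UTR: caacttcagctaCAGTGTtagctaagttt
Tfrc 3′ UTR element 1: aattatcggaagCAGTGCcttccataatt
Tfrc 3′ UTR element 2: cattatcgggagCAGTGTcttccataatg
Tfrc 3′ UTR element 3: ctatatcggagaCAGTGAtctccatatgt
Tfrc 3′ UTR element 4: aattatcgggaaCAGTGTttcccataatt
On GRCm38 these lie at chr19:9982732-9982760 on the plus strand (Fth1), chr7:45459779-45459807 on the minus strand (Ftl1) and chr1:45925465-45925493 on the minus strand (Slc40a1). The 4 Tfrc elements, all on the plus strand, lie at chr16:32631219-32631247, chr16:32631598-32631626, chr16:32631663-32631691 and chr16:32631710-32631738. The same search matched a 5′ UTR in 17 of 21877 genes (0.0777%) and a 3′ UTR in 85 (0.389%). It matched no UTR of Slc11a1, Aco1, Ireb2 or Ncoa4, which says only that these letters are not in those transcripts.

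Libraries held 33.7 to 67.9 M reads in genes. Cybb, the targeted gene, averaged 45.1 CPM (read counts relative to TMM-scaled library size) in CGD and 263 CPM in WT zymosan CD101neg cells, 32.6 and 173 CPM in zymosan CD101pos cells, and 54.7 and 257 CPM in naive cells. The summed level of 10 neutrophil markers lay between 18300 and 114000 CPM, that of 12 alveolar macrophage markers between 168 and 861 CPM, and that of 14 monocyte and interstitial macrophage markers between 1350 and 1800 CPM. The 9 erythroid markers summed to 147 to 587 CPM. Cd101 mRNA averaged 403 CPM in WT zymosan CD101pos and 166 CPM in WT zymosan CD101neg cells, and 105 and 61.1 CPM in the same CGD fractions, so the CGD CD101pos cells held less of it than the WT CD101neg cells. The share of reads from mitochondrial genes was lower in CGD than in WT zymosan libraries without overlap, at 0.316% to 0.359% against 0.492% to 0.581% in CD101neg cells and 0.33% to 0.396% against 0.425% to 0.571% in CD101pos cells. Naive libraries held 0.51% to 0.652% in CGD and 0.587% to 0.764% in WT. The part of this share in the results below was not tested. In bulk samples such as these, fewer cells of a type and less RNA per cell cannot be told apart.

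Zymosan neutrophils of the 2 genotypes differed in the iron genes, and naive neutrophils did not pass a test for any of them. In zymosan CD101neg cells, 5 of the 8 genes passed between CGD and WT (edgeR quasi-likelihood test, adjusted p under 0.05), against 12.9% of all 16575 genes tested. There Fth1 and Slc11a1 were higher, and Ftl1, Slc40a1 and Aco1 lower, in CGD. In zymosan CD101pos cells, 3 of 8 passed, against 5.3% of all genes, with Fth1 and Slc11a1 again higher and Slc40a1 lower. With only the compared groups in the fit, 1 of 8 passed in CD101neg and 0 of 8 in CD101pos cells. All-gene calls fell there too, from 1105 higher and 1034 lower to 625 and 392, and from 459 and 419 to 319 and 212. With 1 library left out at a time, 2 to 4 and 0 to 2 of the 8 passed. Over all genes, 708 to 1054 were then higher and 469 to 922 lower in CD101neg cells, and 189 to 579 and 135 to 563 in CD101pos cells. In naive cells 0 of 8 passed with edgeR, against 0.127% of all genes, and 0 had an unadjusted p under 0.05. With DESeq2 0 of 8 passed, where 93 of all genes were higher and 17 lower. The median log2 fold change of the 8 genes was -0.01 in CD101neg cells, where that of all genes was -0.08, and -0.15 in CD101pos cells, where that of all genes was 0.02. When libraries were scaled by size alone, the all-gene median in the CD101neg comparison moved to -0.57. All 5 genes that passed there kept their direction and their call, at 0.48 for Fth1, 0.77 for Slc11a1, -1.23 for Ftl1, -1.93 for Slc40a1 and -1.46 for Aco1. The CGD CD101neg libraries had the lowest TMM factors, 0.702 to 0.809, against 0.933 to 1.2 in WT. Of 9 B cell markers, 7 were lower in CGD in CD101neg cells (29.6 to 49.3 CPM summed, against 128 to 152 CPM in WT) and 5 in CD101pos cells (50.7 to 71.8 against 153 to 182 CPM), and their part in these results was not tested.

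**Figure D1:**
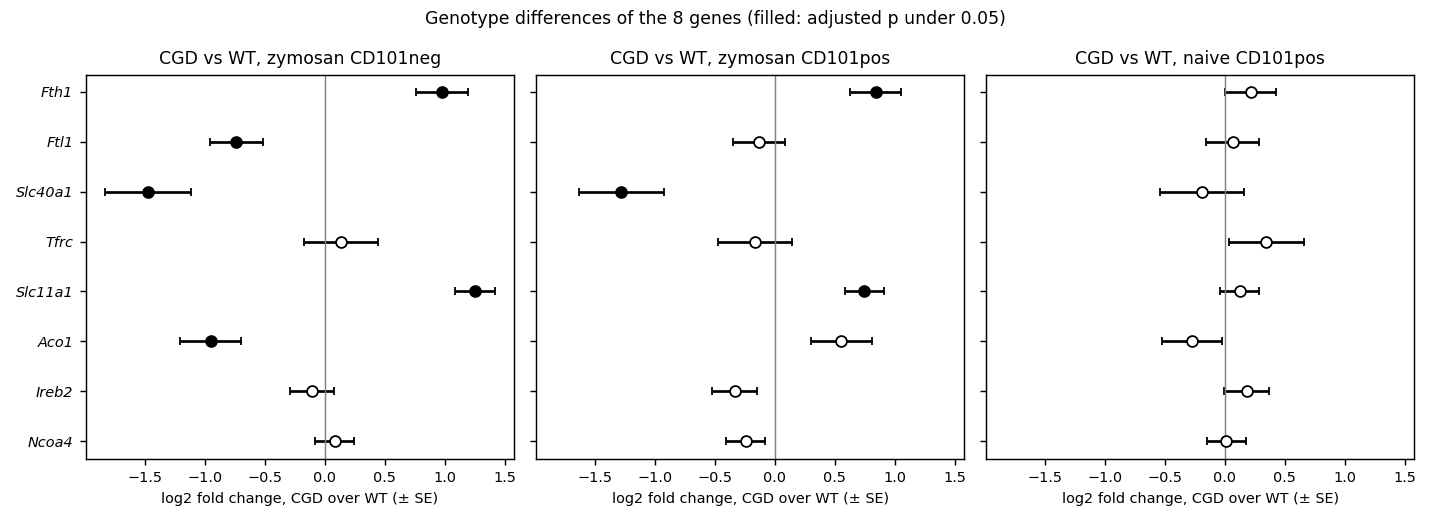
The log2 fold change of CGD over WT (x axis, with its standard error) for each of the 8 genes (y axis) in the 3 genotype comparisons, filled where the adjusted p was under 0.05. Fth1 and Slc11a1 lie to the right and Slc40a1 to the left in both zymosan panels, Ftl1 and Aco1 are filled in the CD101neg and open in the CD101pos panel, and no point is filled in the naive panel.

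Per kilobase of the main transcript, the mRNAs of the ferritin chains were far above the other 6 genes in every group. Fth1 ranged from 8840 to 45000 CPM per kb between group means and Ftl1 from 4600 to 12200 CPM per kb. Slc11a1 (226 to 782 CPM per kb) and Slc40a1 (87.2 to 320 CPM per kb) followed. Ncoa4 (6.59 to 8.88 CPM per kb), Ireb2 (1.98 to 2.56 CPM per kb), Aco1 (0.945 to 2.57 CPM per kb) and Tfrc (0.493 to 1.4 CPM per kb) were the lowest. The transferrin receptor, the usual entry for iron, was thus the least abundant or next to least abundant transcript of the 8 by this measure. Ferritin reads alone, Fth1 and Ftl1 together, made up 2.02% to 5.86% of all reads of a library.

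**Figure D2:**
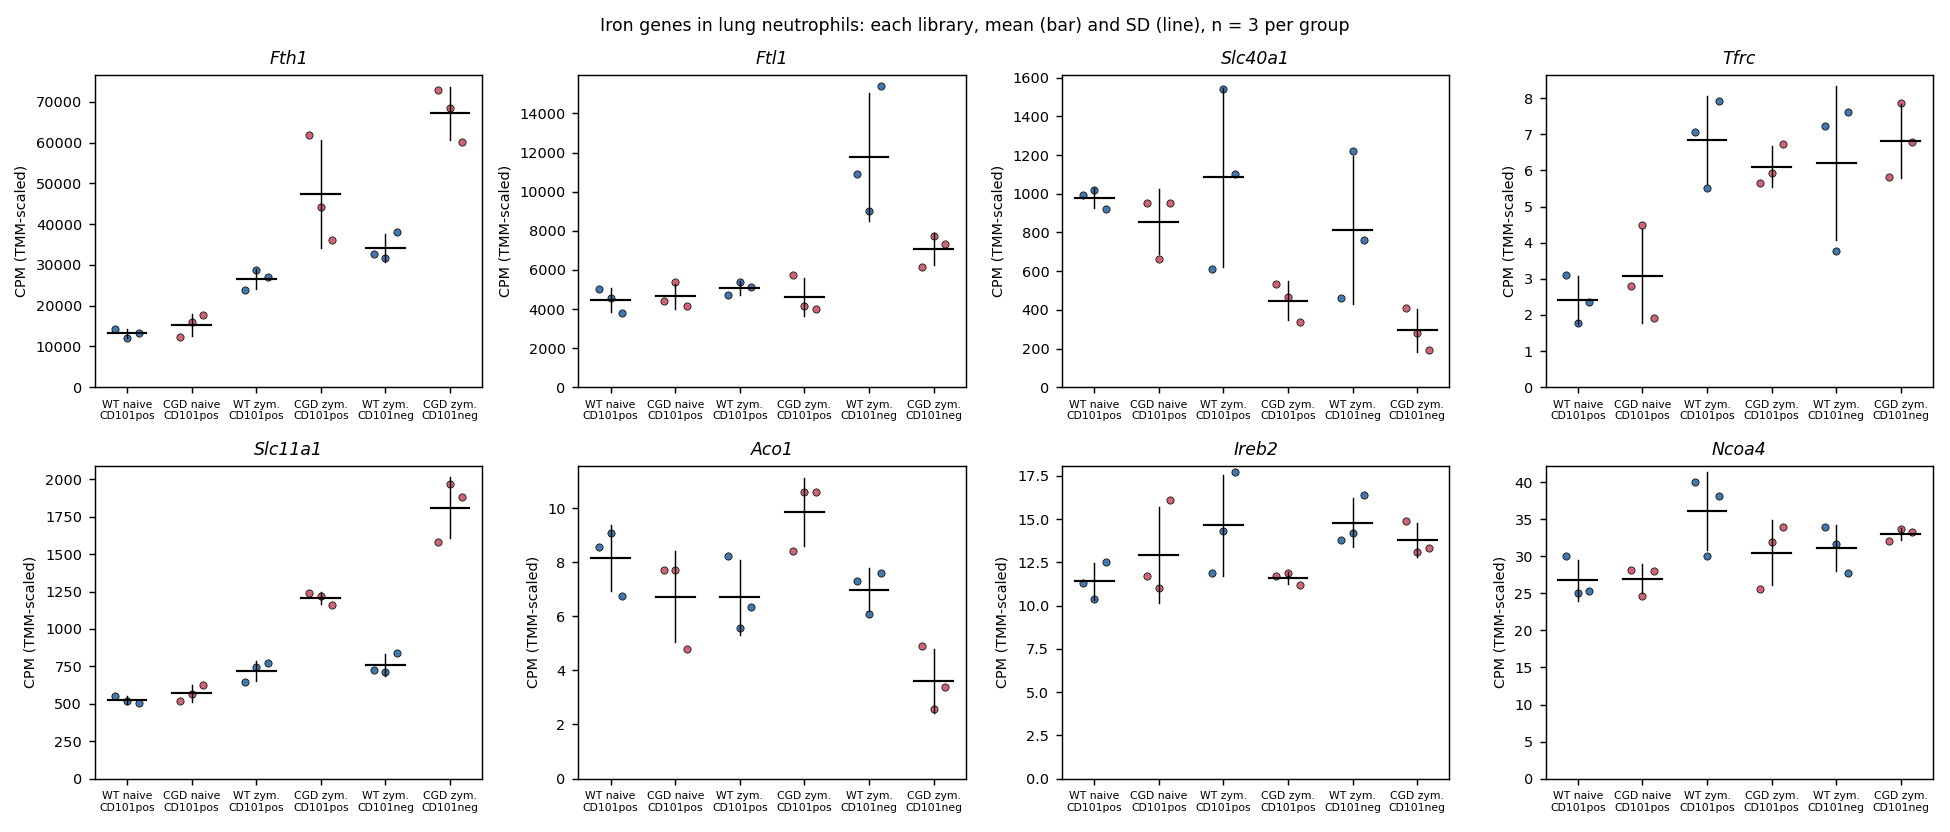
Level of each of the 8 genes in CPM (y axis, linear, from 0) in every library (points), with the mean (bar) and SD (vertical line) of the 3 libraries of each group; WT is blue and CGD red. Fth1 and Slc11a1 climb from naive to CGD zymosan CD101neg cells, Slc40a1 is lowest in both CGD zymosan groups, and Ireb2 and Ncoa4 stay within a narrow band.

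Fth1 (ENSMUSG00000024661, chr19:9980598-9985098, plus strand, GRCm38) was the most abundant member and rose with both zymosan and CGD. The 3 WT naive libraries held 14200, 12200 and 13200 CPM and the CGD naive libraries 12300, 16000 and 17600 CPM. In zymosan CD101pos cells the WT libraries held 23800, 28700 and 27000 CPM and the CGD libraries 61800, 44300 and 36100 CPM. In zymosan CD101neg cells the WT libraries held 32700, 31700 and 38100 CPM and the CGD libraries 72800, 68600 and 60100 CPM. Naive libraries of the 2 genotypes overlapped, while after zymosan every CGD library lay above every WT library of its fraction. The CGD over WT log2 fold change was 0.97 ± 0.22 (SE, adjusted p = 0.0065) in CD101neg and 0.84 ± 0.22 (adjusted p = 0.028) in CD101pos cells, which are 1.97-fold and 1.79-fold. With libraries scaled by size alone the CD101neg value was 0.48 (adjusted p = 0.0236), and with only the compared groups in the fit neither call was kept (adjusted p = 0.0541 and 0.166). The naive difference, 0.21 ± 0.22 with a 95% interval of -0.24 to 0.66, did not pass (adjusted p = 0.932).

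Between zymosan and naive CD101pos cells, Fth1 was 1.01 ± 0.22 higher on the log2 scale in WT (adjusted p = 0.0118) and 1.63 ± 0.22 higher in CGD (adjusted p = 7.52e-05). The difference between those changes, 0.62 ± 0.30, did not pass (adjusted p = 0.482). In order of mean level, CGD zymosan CD101neg and CD101pos overlapped, as did CGD CD101pos and WT CD101neg, and WT CD101pos lay below WT CD101neg and above both naive groups. The CD101pos genotype call was lost when any 1 of WT replicates 1, 2 and 3 or CGD replicates 1 and 2 was left out (0.60 to 0.90, adjusted p 0.0665 to 0.123). The WT zymosan call was lost without naive WT replicate 2 (0.95, adjusted p = 0.0782) or 3 (1.01, adjusted p = 0.0584).

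Ftl1 (ENSMUSG00000050708, chr7:45457944-45459884, minus strand) did not follow Fth1. Its levels were 5010, 4560 and 3780 CPM in WT naive and 4400, 5360 and 4170 CPM in CGD naive libraries, and 4710, 5390 and 5110 CPM in WT and 5740, 4130 and 4000 CPM in CGD zymosan CD101pos libraries. These 4 groups overlapped. In zymosan CD101neg cells Ftl1 reached 10900, 9000 and 15400 CPM in WT and 6150, 7720 and 7330 CPM in CGD, with every CGD library below every WT library. WT CD101neg cells thus had the highest Ftl1 mRNA level of the 6 groups, 1.22 ± 0.22 above WT CD101pos cells on the log2 scale (adjusted p = 0.0175), a 2.32-fold difference. It was the single member of the 8 to pass between the WT fractions, where 0.44% of all genes passed.

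The CGD over WT log2 fold change of Ftl1 in CD101neg cells was -0.74 ± 0.22 (adjusted p = 0.0346), and in CD101pos cells -0.13 ± 0.22 (adjusted p = 0.824). These differ by -0.60 ± 0.31, which did not pass (adjusted p = 0.389). The difference between CGD fractions, 0.61 ± 0.22, also did not pass in the unblocked fit (adjusted p = 0.0993), and its blocked value is given below. The CD101neg genotype call was lost without WT replicate 1 or 3 or any 1 of the CGD libraries (-0.80 to -0.50, adjusted p 0.0541 to 0.183), with the replicate number as a block (adjusted p = 0.0508) and with the compared groups alone (adjusted p = 0.176). The WT fraction call was lost with the compared groups alone (adjusted p = 0.409), where 0 of all genes passed. It was also lost without any 1 of the WT CD101pos libraries or WT CD101neg replicate 3 (0.98 to 1.26, adjusted p 0.0787 to 0.187). In the CD101neg genotype comparison 6 of 12 alveolar and 9 of 14 monocyte and interstitial macrophage markers were lower in CGD too. With DESeq2, 2 alveolar markers were higher and 6 lower. The part of these markers in the Ftl1 result was not tested.

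The replicate numbers paired the WT fractions, and with that pairing in the fit Ftl1 was 1.18 ± 0.18 higher in WT CD101neg cells (adjusted p = 3e-04). Slc40a1 then passed too, at -0.44 ± 0.12 (adjusted p = 0.0305), against 10.4% of all genes. Between the CGD fractions, paired less clearly, the same blocked fit passed Ftl1 (0.60, adjusted p = 0.019) and Slc40a1 (-0.67, adjusted p = 0.000753). It also passed Fth1 (0.51, adjusted p = 0.0144), Slc11a1 (0.55, adjusted p = 0.00462) and Aco1 (-1.51, adjusted p = 8.41e-05). Of all genes, 1821 were higher and 2061 lower there. Between the WT fractions the macrophage markers were counted without that pairing, in the fit where 0.44% of all genes passed, and not in the paired fit. Of the alveolar and of the interstitial markers, 0 of 12 and 0 of 14 passed there with edgeR. At an unadjusted p under 0.05 the counts were 1 lower of 12 and 2 higher of 14, and with DESeq2 0 of 12 and 1 higher of 14. The alveolar list summed to 223 to 462 CPM in WT CD101neg and 206 to 569 CPM in WT CD101pos libraries, and its part in the Ftl1 result was not tested.

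Ferritin genes have processed copies elsewhere in the genome, and the handling of reads that match several places is not given in the sources used here. Reads assigned to the annotated copies equalled 2.21% to 3.93% of the Ftl1 reads and at most 0.0364% of the Fth1 reads of a library. Adding them to their parent genes left each ferritin call in place. A microRNA gene model on the same strand touches an exon of Ftl1, and a gene model on the opposite strand that also touches one is not in the table, so Ftl1 counts may include reads of either.

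The balance of heavy to light chain mRNA is free of any scaling between libraries, since both are read in the same library. Protein was not measured in these data. WT naive libraries held 3.0 ± 0.44 Fth1 reads per Ftl1 read and CGD naive libraries 3.33 ± 0.77 (mean ± SD, n = 3). After zymosan the ratio was 5.22 ± 0.15 in WT and 10.2 ± 0.99 in CGD CD101pos cells. In CD101neg cells it was 3.0 ± 0.52 in WT and 9.63 ± 1.91 in CGD, where the lowest CGD library (8.20) lay above the highest WT library (3.52). WT CD101neg cells thus had the ratio of naive cells at a higher level of both mRNAs, while CGD cells of both fractions had a ratio about 3 times the naive one. The exact two-sided permutation p was 0.1 for the genotype difference in each zymosan fraction and 0.6 in naive cells, and 0.1 is the smallest that 3 against 3 libraries allow.

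**Figure D3:**
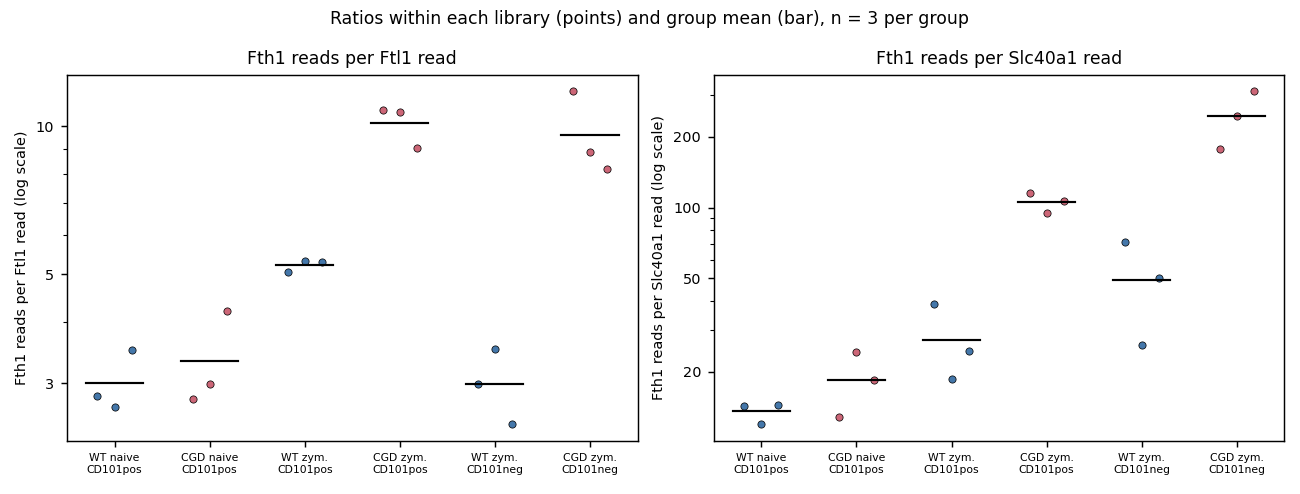
Fth1 reads per Ftl1 read (left) and per Slc40a1 read (right) in each library (points) with the group mean (bar), on log axes; WT is blue and CGD red. The left ratio stays between 2.48 and 5.33 in naive and WT libraries and between 8.20 and 11.8 in CGD zymosan libraries, and the right ratio is at least 94.6 in every CGD zymosan library and at most 71.2 elsewhere.

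Slc40a1 (ENSMUSG00000025993, chr1:45908068-45926523, minus strand) was lower in CGD than in WT cells after zymosan. The zymosan CD101neg libraries held 459, 1220 and 762 CPM in WT and 409, 280 and 192 CPM in CGD. The CD101pos libraries held 613, 1540 and 1100 CPM in WT and 536, 468 and 337 CPM in CGD. Every CGD library lay below every WT library of its fraction, but WT replicate 1 came close to the highest CGD library in each. Naive levels overlapped, at 994, 1020 and 920 CPM in WT and 953, 663 and 952 CPM in CGD.

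The log2 fold change of Slc40a1 was -1.47 ± 0.36 (adjusted p = 0.011) in CD101neg cells, 2.77-fold lower, and -1.28 ± 0.35 (adjusted p = 0.0407) in CD101pos cells, 2.43-fold lower. In naive cells it was -0.19 ± 0.35, with a 95% interval of -0.92 to 0.54. The zymosan against naive change was 0.15 ± 0.35 in WT and -0.94 ± 0.35 in CGD (adjusted p = 0.089), and neither these nor their difference (-1.09 ± 0.50, adjusted p = 0.432) passed. The CD101neg call was lost without WT replicate 2 (-1.06, adjusted p = 0.0534) or CGD replicate 3 (-1.24, adjusted p = 0.0545), and with the compared groups alone (adjusted p = 0.0628). In CD101pos cells it was lost without WT replicate 2 or 3 or any 1 of the CGD libraries (-1.43 to -0.94, adjusted p 0.0641 to 0.217), and with the replicate number as a block, without the low-count filter or with the compared groups alone (adjusted p = 0.0552, 0.0912 and 0.062).

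Ferroportin is known to be abundant in macrophages, so their markers are given beside it. In CD101neg cells 6 of 12 alveolar and 9 of 14 monocyte and interstitial macrophage markers were lower in CGD and 0 higher with edgeR. With DESeq2, 2 alveolar markers were higher and 6 lower, and 0 interstitial markers higher and 9 lower. Their interstitial sum was lower without overlap (1350 to 1470 CPM in CGD, 1520 to 1800 CPM in WT), while the alveolar sum overlapped (326 to 516 and 223 to 462 CPM). In CD101pos cells 4 of 12 alveolar markers were higher, and 5 of 14 interstitial markers were higher and 1 lower, with alveolar sums of 519 to 861 CPM in CGD and 206 to 569 CPM in WT and interstitial sums of 1450 to 1740 and 1410 to 1680 CPM. The part of these markers in the Slc40a1 results was not tested. Within each zymosan group, the library order of Slc40a1 was also that of the summed neutrophil markers. In WT CD101pos cells, 613, 1100 and 1540 CPM of Slc40a1 went with 30000, 52200 and 85600 CPM of those markers, and in CGD CD101neg cells 192, 280 and 409 CPM went with 50700, 59800 and 114000 CPM.

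Set against Fth1 mRNA in the same library, Slc40a1 mRNA was lowest in CGD CD101neg cells. There were 13.6 ± 1.36 Fth1 reads per Slc40a1 read in WT naive and 18.5 ± 5.65 in CGD naive cells. The ratio was 27.3 ± 10.4 in WT and 106 ± 10.3 in CGD zymosan CD101pos cells, and 49.1 ± 22.6 in WT and 245 ± 67.5 in CGD zymosan CD101neg cells. That is a 4.03-fold and a 5.28-fold difference between genotypes, with no overlap and an exact permutation p of 0.1 in each fraction.

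Tfrc (ENSMUSG00000022797, chr16:32608920-32632794, plus strand) rose after zymosan and did not differ detectably by genotype. Naive libraries held 3.11, 1.77 and 2.37 CPM in WT and 2.80, 4.48 and 1.92 CPM in CGD. The zymosan CD101pos libraries held 7.07, 5.51 and 7.92 CPM in WT and 5.65, 5.94 and 6.73 CPM in CGD, all above every naive library by TMM-scaled CPM. CD101neg libraries were at 7.24, 3.77 and 7.61 CPM in WT and 5.82, 7.87 and 6.78 CPM in CGD. The 4 zymosan groups overlapped one another. Scaled by library size alone, zymosan CD101pos CGD replicate 1 (4.55 CPM) and WT replicate 2 (4.77 CPM) lay below naive CGD replicate 2 (5.39 CPM).

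The zymosan against naive log2 fold change of Tfrc was 1.5 ± 0.32 in WT (adjusted p = 0.0105) and 0.99 ± 0.31 in CGD (adjusted p = 0.0427), or 2.83-fold and 1.99-fold. Of the 8 genes, 2 passed in this comparison in WT (Fth1 and Tfrc), against 3.79% of all genes, and 3 in CGD (Fth1, Tfrc and Slc11a1), against 12.8%. At an unadjusted p under 0.05, 4 were higher and 0 lower in WT, and 4 higher and 1 lower in CGD. With DESeq2, 3 were higher and 0 lower in each. Over all genes DESeq2 passed 875 higher and 347 lower in WT, and 1556 and 1271 in CGD. The genotype differences of Tfrc were 0.14 ± 0.31 in CD101neg cells (95% interval -0.51 to 0.78) and -0.16 ± 0.31 in CD101pos cells (-0.81 to 0.48). With libraries scaled by size alone both zymosan calls were lost (1.21 and 0.72, adjusted p = 0.077 and 0.22). The WT call was lost without naive WT replicate 2 (1.32, adjusted p = 0.0768) or 3 (1.49, adjusted p = 0.0551). The CGD call was lost with the replicate number as a block (adjusted p = 0.0613), with the compared groups alone (adjusted p = 0.064), without naive CGD replicate 1 or 3, or without any 1 of the CGD zymosan CD101pos libraries (0.73 to 1.05, adjusted p 0.0628 to 0.174). The transferrin receptor is also known for its rise in dividing cells. Of 8 proliferation markers, 0 passed with edgeR in either zymosan comparison. At an unadjusted p under 0.05, 3 were higher in WT and 2 in CGD, and with DESeq2 1 was higher in each. Their median log2 fold changes were 1.03 in WT and 0.76 in CGD, and 8 and 6 of 12 alveolar macrophage markers were higher, with their part in the result not tested.

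Slc11a1 (ENSMUSG00000026177, chr1:74375195-74386062, plus strand) was higher in CGD than in WT zymosan cells of both fractions, as Fth1 was. It encodes a metal transporter of the late phagosome, and C57BL/6 mice are known to carry an allele that disables the protein. Naive libraries held 553, 515 and 503 CPM in WT and 516, 564 and 628 CPM in CGD, which overlapped. After zymosan, CD101pos libraries held 646, 743 and 770 CPM in WT and 1240, 1220 and 1160 CPM in CGD. CD101neg libraries held 728, 710 and 842 CPM in WT and 1580, 1970 and 1880 CPM in CGD. By TMM-scaled CPM the 3 CGD CD101neg libraries were the highest of the 18, and the 3 CGD zymosan CD101pos libraries came next. Scaled by library size alone, CGD CD101neg replicate 1 (1110 CPM) lay below CGD zymosan CD101pos replicates 2 and 3 (1170 and 1260 CPM).

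The genotype log2 fold change of Slc11a1 was 1.25 ± 0.17 in CD101neg cells (adjusted p = 0.000101, 2.38-fold) and 0.75 ± 0.16 in CD101pos cells (adjusted p = 0.0113, 1.68-fold). The CD101neg call held under every alternative run (0.77 to 1.34). The CD101pos call was lost without CGD replicate 2 (0.74, adjusted p = 0.0529) and with the compared groups alone (adjusted p = 0.116). Zymosan against naive, it was 1.08 ± 0.16 higher in CGD (adjusted p = 0.000226), a call that also held under every alternative. In WT it was 0.46 ± 0.16 higher without overlap of the libraries, which did not pass (unadjusted p = 0.0113, adjusted p = 0.134). The difference between these, 0.62 ± 0.23, did not pass either (adjusted p = 0.321).

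Between the CGD fractions, Slc11a1 was 0.58 ± 0.16 higher in CD101neg cells (adjusted p = 0.0383), and between the WT fractions 0.08 ± 0.16 (adjusted p = 0.929). The difference of these was 0.50 ± 0.23 (adjusted p = 0.327). With DESeq2, 2 of the 8 genes were higher and 1 lower between the CGD fractions, where 1059 of all genes were higher and 1077 lower. Slc11a1 and Aco1 were the 2 of 8 genes to pass there in the unblocked edgeR fit, where 7.35% of all genes passed. The Slc11a1 call there was lost when libraries were scaled by size alone (0.27, adjusted p = 0.294), without the low-count filter (adjusted p = 0.181), with the compared groups alone (adjusted p = 0.087), and without any 1 of the CGD libraries apart from CD101neg replicate 1 (0.52 to 0.60, adjusted p 0.0607 to 0.147).

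Aco1 (ENSMUSG00000028405, chr4:40143081-40198338, plus strand) encodes IRP1, which is a cytosolic aconitase when it holds an iron-sulfur cluster and an RNA-binding protein when it does not. In CD101neg cells it was lower in CGD, at 4.89, 2.56 and 3.40 CPM against 7.29, 6.09 and 7.59 CPM in WT. In CD101pos cells the CGD libraries held 8.42, 10.6 and 10.6 CPM and the WT libraries 8.24, 5.55 and 6.33 CPM, so that CGD lay just above WT. Scaled by library size alone these overlapped, at 6.78, 10.1 and 11.6 CPM in CGD and 9.28, 4.81 and 5.94 CPM in WT. Naive levels were 8.57, 9.10 and 6.77 CPM in WT and 7.70, 7.71 and 4.79 CPM in CGD, which overlapped. The lowest group by mean was CGD zymosan CD101neg and the highest CGD zymosan CD101pos.

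The genotype log2 fold change of Aco1 was -0.95 ± 0.26 in CD101neg cells (adjusted p = 0.0203) and 0.56 ± 0.25 in CD101pos cells (adjusted p = 0.248). Between CGD fractions Aco1 was lower in CD101neg cells (-1.45 ± 0.26, adjusted p = 0.00355, 2.73-fold), which held under every alternative run, and between WT fractions the difference was 0.06 ± 0.25. The genotype by fraction difference, -1.51 ± 0.36, did not pass in the unblocked fit (adjusted p = 0.0555). With the replicate number as a block within genotype it passed (-1.57 ± 0.30, adjusted p = 0.00247), as 13.3% of all genes did. Same-numbered CGD fractions deviated together less than the WT ones (correlations 0.236, 0.025 and 0.26), and CGD fractions of other numbers reached at most 0.012. In the unblocked edgeR fit 0 of the 8 genes passed the genotype by fraction interaction, against 0.851% of all genes, and 1 higher and 1 lower had an unadjusted p under 0.05. DESeq2 passed 1, Aco1 (adjusted p = 0.00581), and over all genes it passed 198 higher and 391 lower. The CD101neg genotype call was lost without WT replicate 1 or 3 or CGD replicate 2 or 3 (-0.92 to -0.75, adjusted p 0.0557 to 0.105), and with the compared groups alone (adjusted p = 0.0925). Many macrophage markers, though not all, were lower in that comparison as well, as given for Slc40a1. In the CGD fractions 8 of 12 alveolar and 8 of 14 interstitial macrophage markers were also lower in CD101neg cells, with alveolar sums of 326 to 516 CPM against 519 to 861 CPM, and their part in the Aco1 result was not tested.

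Ireb2 (ENSMUSG00000032293, chr9:54863789-54912530, plus strand), encoding IRP2, and Ncoa4 (ENSMUSG00000056234, chr14:32159865-32179855, plus strand) passed in none of the 9 comparisons and interactions tested with edgeR. Ireb2 lay between 10.4 and 17.7 CPM over the 18 libraries and Ncoa4 between 24.7 and 40.0 CPM. Their highest group mean was 1.30-fold and 1.35-fold the lowest, against 5.09-fold for Fth1 and 3.46-fold for Slc11a1. In CD101neg cells the 95% interval of the CGD over WT log2 fold change was -0.49 to 0.28 for Ireb2 and -0.26 to 0.43 for Ncoa4. A 2-fold genotype difference lies outside both intervals. In the interaction of genotype with zymosan, 0 of the 8 genes passed with edgeR, against 0.32% of all genes, and 2 higher and 1 lower had an unadjusted p under 0.05. With DESeq2 0 of the 8 passed, where 118 of all genes were higher and 143 lower.

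Beyond the 8 genes, a list of 94 others with roles in iron, haem and iron-sulfur metabolism was examined, of which 89 could be tested. In zymosan CD101neg cells, 13 were higher and 11 lower in CGD (27.0% of the list, against 12.9% of all genes). With libraries scaled by size alone the split was 7 higher and 26 lower. Of 4 haem breakdown genes, 2 fell and 1 rose. Hmox1, the haem oxygenase that frees iron from haem, was -1.33 ± 0.25 (adjusted p = 0.00203). Blvrb, named biliverdin reductase B, fell too, and held 5.77, 5.58 and 4.72 CPM in CGD and 24.5, 26.9 and 47.4 CPM in WT (-2.62 ± 0.23, adjusted p = 1.64e-06). Hfe, a partner of the transferrin receptor in iron sensing, was lower as well, at 5.85, 4.42 and 4.95 CPM in CGD against 27.5, 11.8 and 24.6 CPM in WT (-2.07 ± 0.34, adjusted p = 0.000717). Blvra, the other biliverdin reductase, rose, at 20.5, 47.4 and 42.7 CPM in CGD against 16.7, 9.84 and 14.9 CPM in WT (1.42 ± 0.29, adjusted p = 0.00328). Beside these falls, 6 of 12 alveolar and 9 of 14 interstitial macrophage markers were lower in CGD in the same comparison. With DESeq2, 2 alveolar markers were higher and 6 lower. The part of these markers in the falls was not tested.

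Of 26 iron-sulfur cluster genes, 4 were higher and 1 lower in CGD CD101neg cells (19.2%, against 12.9% of all genes), with a median log2 fold change of -0.13 where that of all genes was -0.08. Also higher were 2 of 4 genes linked to ferroptosis, the iron-dependent form of cell death. Ciapin1, of the cytosolic cluster assembly machinery, rose by 1.59 ± 0.19 (adjusted p = 3.08e-05) and Lyrm4, a partner of the mitochondrial cysteine desulfurase, by 1.80 ± 0.26 (adjusted p = 0.000248). Acsl4, which activates the polyunsaturated fatty acids that go into the phospholipids oxidised in ferroptosis, held 178, 194 and 200 CPM in CGD and 59.1, 30.3 and 48.1 CPM in WT (2.05 ± 0.26, adjusted p = 6.41e-05). Prnp, the prion protein, held in the list under storage, chaperones and turnover, rose by 2.52 ± 0.34 (adjusted p = 0.000132). For each of these genes, all 3 CGD libraries lay outside the range of the 3 WT libraries.

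In zymosan CD101pos cells 10 list genes were higher and 0 lower in CGD (11.2% of the list, against 5.3% of all genes). With an unadjusted p under 0.05 there were 20 higher and 5 lower, and with DESeq2 13 higher and 2 lower; scaling by library size alone gave 7 and 2. Without WT replicate 2 or CGD replicate 2, 6 were higher, and without WT replicate 1, 15 were higher and 1 lower. Lyrm4 (1.34 ± 0.26), Acsl4 (1.23 ± 0.25) and Prnp (1.58 ± 0.33) rose in this fraction too, with adjusted p of 0.00555, 0.00749 and 0.00881. Slc7a11, the cystine importer that feeds glutathione synthesis, was at 808, 809 and 614 CPM in CGD and 331, 300 and 414 CPM in WT (1.09 ± 0.23, adjusted p = 0.00946), a call lost without WT replicate 2 or CGD replicate 2 (1.00 and 1.03, adjusted p = 0.0534 and 0.052). Myc, a transcription factor known to repress Fth1 and to raise Ireb2 and Tfrc, rose by 1.49 ± 0.29 (adjusted p = 0.00533). Cd163, the haemoglobin scavenger receptor and a macrophage gene, was at 8.44, 20.8 and 26.8 CPM in CGD against 3.98, 2.15 and 2.01 CPM in WT (2.78 ± 0.50, adjusted p = 0.00315), in the fraction in which 4 of 12 alveolar macrophage markers were also higher. In naive cells 0 of 89 passed with edgeR, 6 higher and 1 lower had an unadjusted p under 0.05 and 0 passed with DESeq2.

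**Figure D4:**
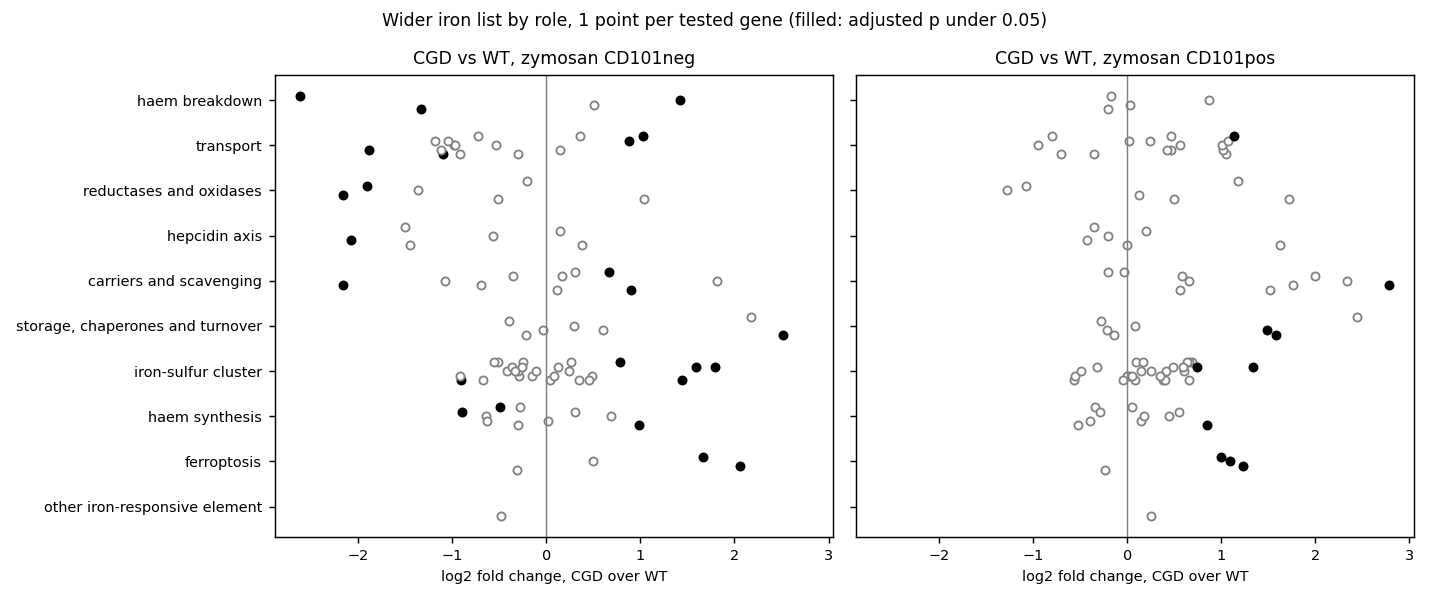
The log2 fold change of CGD over WT (x axis) for each tested gene of the wider iron list, in rows by role, in zymosan CD101neg (left) and CD101pos cells (right), filled where the adjusted p was under 0.05. Filled points lie on both sides in CD101neg cells (13 higher, 11 lower) and on the higher side in CD101pos cells (10).

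The rise of Ftl1 in WT CD101neg cells was accompanied by 3 genes of the wider list, the ones to pass between the WT fractions. Hmox1 held 476, 580 and 871 CPM in CD101neg and 176, 221 and 208 CPM in CD101pos libraries, 1.67 ± 0.25 higher (adjusted p = 0.00609). Blvrb was 1.4 ± 0.22 higher (adjusted p = 0.00609), against the 11.9, 13.7 and 11.9 CPM of WT CD101pos libraries. Slc7a11 held 825, 596 and 1150 CPM in CD101neg and 331, 300 and 414 CPM in CD101pos libraries, 1.30 ± 0.23 higher (adjusted p = 0.0149). WT CD101neg replicate 3 was the highest library of its group for all 3 and for Ftl1. With the replicates paired, 8 genes of the list were higher and 10 lower, where 10.4% of all genes passed, and these 3 kept their calls. Without WT CD101pos replicate 3, none of the 3 passed (adjusted p = 0.0663 for each), and without CD101neg replicate 2, 3 list genes were lower as well as 3 higher. Slc7a11 was also lost without WT CD101pos replicate 1 or 2 or CD101neg replicate 3 (1.03 to 1.26, adjusted p 0.0763 to 0.162).

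**Figure D5:**
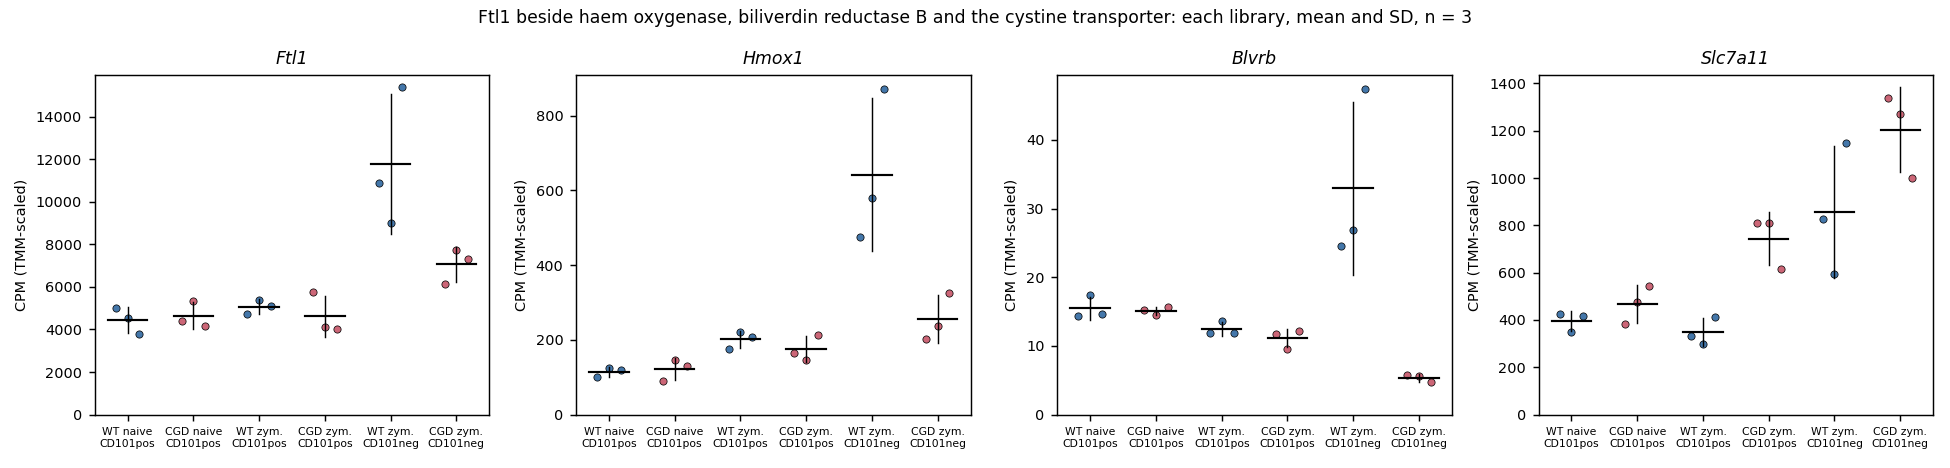
Ftl1, Hmox1, Blvrb and Slc7a11 in CPM (y axis, linear, from 0) in every library (points), with the mean (bar) and SD (vertical line) of each group of 3; WT is blue and CGD red. Ftl1, Hmox1 and Blvrb are highest in WT zymosan CD101neg cells, and Blvrb is lowest in CGD zymosan CD101neg cells, while Slc7a11 is highest in the latter.

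Between CGD fractions Blvrb went the other way. It was lower in CD101neg than in CD101pos cells (-1.06 ± 0.22, adjusted p = 0.0084), and the genotype by fraction interaction of Blvrb passed at -2.45 ± 0.31 (adjusted p = 0.0011). In all, 5 list genes were higher and 11 lower (18%, against 7.35% of all genes), and 2 and 16 with libraries scaled by size alone. Without CGD CD101pos replicate 2 or 3 or CD101neg replicate 2 or 3, 3 were higher and 6 or 7 lower. Slc25a37, mitoferrin 1, which carries iron into mitochondria, was higher, at 74.5, 78.4 and 97.3 CPM against 25.9, 31.6 and 35.7 CPM (1.43 ± 0.24, adjusted p = 0.00269). Slc39a8, a plasma membrane importer of zinc and other metals, was lower (-1.97 ± 0.41, adjusted p = 0.00949), as was Cd163 (-4.65 ± 0.55, adjusted p = 0.000189). Ciapin1 (1.11 ± 0.18, adjusted p = 0.00207) and Acsl4 (1.18 ± 0.25, adjusted p = 0.0103) were higher, the latter not when libraries were scaled by size alone or without CGD CD101pos replicate 3 (adjusted p = 0.0781 and 0.0566).

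After zymosan, against naive cells, 4 list genes were higher and 0 lower in WT (4.49%, against 3.79% of all genes), and 16 higher and 3 lower in CGD (21.3%, against 12.8%). In WT 15 higher and 4 lower had an unadjusted p under 0.05, and with DESeq2 7 were higher and 0 lower. Scaling by library size alone gave 3 higher and 1 lower in WT and 11 higher and 10 lower in CGD. In WT, 2 were higher without any 1 of the naive libraries or zymosan CD101pos replicate 3. Alas1, which makes the first committed step of haem synthesis, rose in both genotypes, from 70.1, 77.5 and 82.4 to 194, 261 and 246 CPM in WT (1.61 ± 0.19, adjusted p = 7.04e-05) and from 81.4, 124 and 139 to 425, 395 and 444 CPM in CGD (1.88 ± 0.20, adjusted p = 4.54e-06). Prnp rose by 3.36 ± 0.36 in WT (adjusted p = 2.47e-05) and 4.25 ± 0.37 in CGD (adjusted p = 7.06e-07). In CGD, Cd163 (5.03 ± 0.56), Slc39a8 (2.49 ± 0.42), Abcg2, an exporter of porphyrins (1.52 ± 0.27), and Ciapin1 (1.07 ± 0.18) also rose, with adjusted p of 1.07e-05, 0.000642, 0.000834 and 0.000735. Blvra passed in WT at 1.08 ± 0.29 (adjusted p = 0.0401), a call lost with library-size scaling, with the replicate block, and without any 1 of the naive WT libraries or WT zymosan CD101pos replicate 1 or 3 (0.76 to 1.19, adjusted p 0.0597 to 0.197). Steap4, a metalloreductase, spread widely over the WT zymosan libraries (282, 1590 and 716 CPM), and its WT call (2.71 ± 0.70, adjusted p = 0.0392) was lost without any 1 of the naive WT libraries or WT zymosan CD101pos replicate 2 or 3 (1.92 to 2.97, adjusted p 0.0718 to 0.16).

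Across the 18 libraries, the genes whose log2 CPM followed a member most closely, of 5166 to 5167 genes with a mean of at least 10 CPM, were taken as a description. The 18 points share their libraries and their 6 groups, and these values have no test. For Fth1 they were Smim15 (r = 0.979), Zfp719 (0.979) and Slfn2 (0.978), and for Slc11a1 they were Irak3 (0.969), Rab7 (0.966) and Gtf2f1 (0.965). Rab7 encodes a GTPase of late endosomes and phagosomes, and Irak3 an inhibitor of Toll-like receptor signalling. For Slc40a1 they were Ccpg1os (0.968), Sc5d (0.966), an enzyme of cholesterol synthesis, and Bckdha (0.952), a subunit of the branched-chain keto acid dehydrogenase. For Tfrc they were Cep83 (0.951), Nfkbia (0.938), the inhibitor of NF-kB, and Creb5 (0.937).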

How the data were processed

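Bulk RNA sequencing of 18 libraries was used. The authors deposited raw read counts per gene, for which the submitters' processing notes name featureCounts 1.4.6-p5, Subread and STAR 2.5.1a, from total RNA with the Clontech SMARTer kit per the labels. The genome build, annotation, strand setting and multi-mapping rule behind them were not given in the sources used here. Sense and antisense reads therefore cannot be told apart. Coordinates and transcript lengths are those of GENCODE M21 (GRCm38) by gene ID. Of 40757 table lines, 276 were exact repeats of another line and were dropped. filterByExpr by group kept 16575 genes. edgeR 4.0.16 in R 4.3.3 fitted all 18 libraries with TMM factors (quasi-likelihood test, robust, 12 residual degrees of freedom), and p-values were adjusted over all genes tested by the method of Benjamini and Hochberg, with a threshold of 0.05. The SE is the log2 fold change over the square root of F. Total reads per library bear most on the genes with few reads, such as Tfrc and Aco1. In the CD101neg genotype comparison their SEs (0.31 and 0.26) were still below that of Slc40a1 (0.36), a gene with far more reads.

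The 7 pairwise comparisons and 2 interactions were refitted with DESeq2 1.42.0, RLE or library-size scaling, no low-count filter, the compared groups alone, replicate blocks, each library left out, and ferritin reads summed with their copies. Same-numbered WT CD101neg and CD101pos libraries deviated together (correlations 0.487, 0.425 and 0.312 across genes), so the blocked fit of the 12 zymosan libraries (4 residual degrees of freedom) is given for that comparison. It is also given for the interaction and for the CGD fractions, where same-numbered libraries deviated together less (0.236, 0.025 and 0.26). The edgeR test was also run on simulated counts, in which some genes were raised or lowered alike in number in the CGD zymosan CD101neg group. Those counts held no shift of the kind that sets the TMM factors apart here, so they cannot speak to the choice of scaling. The members, gene lists and markers were chosen with earlier results of these data known. From the wider list, up to 6 genes per comparison with the lowest adjusted p and at least 5 CPM in the higher group are named; Hmox1 and Blvra in the CD101neg genotype comparison were added after their values were seen.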

Additional observations from a re-analysis of the deposited data

Results flagged for a closer look

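The effect of genotype differed between the 2 CD101 fractions by a test of the difference for Blvrb, with an interaction of -2.45 ± 0.31 on the log2 scale (adjusted p = 0.0011). The same interaction was -4.94 ± 0.71 for Cd163 (adjusted p = 0.00307), which held 8.44, 20.8 and 26.8 CPM in CGD zymosan CD101pos libraries and 0.663, 0.59 and 0.976 CPM in CGD zymosan CD101neg libraries. Of the 12 alveolar and 14 interstitial macrophage markers, 4 and 6 passed the same interaction, all lower, and their part in the Cd163 result was not tested.

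The zymosan response of Cd163 also differed between genotypes, by 4.05 ± 0.71 (adjusted p = 0.0228), with 0.438, 0.732 and 0.545 CPM in CGD naive and 0.947, 1.02 and 2.20 CPM in WT naive libraries. That call was lost without any 1 of naive WT replicate 2 or 3, naive CGD replicate 1 or 3, WT zymosan CD101pos replicate 2 or 3 and CGD zymosan CD101pos replicate 2 or 3 (3.57 to 4.23, adjusted p 0.0509 to 0.0847).

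Aco1 stood out because, by TMM-scaled CPM, every CGD library lay below every WT library in zymosan CD101neg cells and above it in zymosan CD101pos cells. The CD101pos gap was narrow, from 8.24 CPM in WT to 8.42 CPM in CGD. Scaled by library size alone, the CD101pos libraries overlapped, at 6.78, 10.1 and 11.6 CPM in CGD and 9.28, 4.81 and 5.94 CPM in WT. The test of the genotype by fraction difference, -1.51 ± 0.36, gave an adjusted p of 0.0555, which ranged from 0.00247 to 0.152 over the alternatives.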

How the results depend on the processing

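Of 72 combinations of the 8 genes with the 9 comparisons, 16 passed, and all 16 kept their direction under every alternative run. The calls that held under all of them were Slc11a1 in the CD101neg genotype comparison, Aco1 between CGD fractions, and Fth1 and Slc11a1 in CGD zymosan against naive cells. With only the compared groups in the fit, the number of the 8 genes that passed fell from 5 to 1 (CD101neg genotype), 3 to 0 (CD101pos genotype), 1 to 0 (WT fractions) and 2 to 1 (CGD fractions). It stayed at 3 in CGD zymosan against naive cells, with Slc40a1 (lower) in place of Tfrc. Over all genes, that fit passed 625 higher and 392 lower, 319 and 212, 0 and 0, 532 and 636, and 1130 and 887 in these comparisons, in that order. The main fit passed 1105 and 1034, 459 and 419, 68 and 5, 542 and 676, and 1182 and 946. The fit of the compared groups has fewer samples, and Fth1 in CD101neg cells then had an adjusted p of 0.0541. Scaling by library size passed 1 rather than 2 genes in WT zymosan against naive cells. It passed 1 rather than 0 in the genotype by fraction interaction, as did DESeq2, no low-count filter and the block within genotype, in each case Aco1. No low-count filter passed 1 rather than 2 between CGD fractions. The cause was not tested.

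Leaving out 1 library at a time gave 2 to 4 genes in the CD101neg genotype comparison, 0 to 2 in CD101pos, 0 to 1 between WT fractions, 1 to 2 between CGD fractions, 0 to 2 and 2 to 3 in zymosan against naive cells of WT and CGD, and 0 to 1 in the genotype by fraction interaction. All-gene counts moved in these refits too. They were 708 to 1054 higher and 469 to 922 lower in the CD101neg genotype comparison, and 3 to 275 higher and 0 to 125 lower between WT fractions. The replicate number as a block over all 18 libraries gave 4, 2, 0, 1, 2, 2, 2, 0 and 0 genes in the order of the 7 comparisons and 2 interactions, losing Ftl1 in CD101neg cells (adjusted p = 0.0508). Same-numbered CGD fractions deviated together less (correlations 0.236, 0.025 and 0.26), and the block within genotype passed 5 genes there (3 higher, 2 lower), 2 between WT fractions and 1 in the interaction.

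The wider list moved by over 1.5 times in several settings. With the compared groups alone, 8 were higher and 7 lower in the CD101neg genotype comparison (625 and 392 of all genes). Between WT fractions 0 passed in that fit, where 0 of all genes passed too. With DESeq2, 5 passed between WT fractions and 7 in WT zymosan against naive cells. DESeq2 also gave 1 higher and 8 lower in the fraction interaction, and 3 in the zymosan interaction. Without the low-count filter, 0 were higher and 8 lower in the fraction interaction. There 7 were lower without WT CD101pos replicate 1 and 4 without WT CD101neg replicate 2. The block within genotype gave 12 higher and 22 lower between CGD fractions, 8 and 10 between WT fractions, and 8 and 19 in the fraction interaction. Over all genes, these blocked comparisons passed 1821 higher and 2061 lower, 792 and 933, and 925 and 1279, in that order. Library-size scaling moved the median of all genes by more than 0.1 in several comparisons and tilted the calls, from 1105 higher and 1034 lower to 413 and 3572 in the CD101neg genotype comparison, for example. Tfrc and Aco1, at a few CPM, are the members on which depth bears most.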
